A study of Gossypium hirsutum with 120 samples.

Results

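The floral nectary of upland cotton (*Gossypium hirsutum* accession TM-1) was compared with the circumbracteal nectary before either had begun to secrete. The comparison took 5 of the 51 RNA samples in the table, 2 of pre-secretory floral nectaries and 3 of pre-secretory circumbracteal nectaries, chosen by the tissue and stage in their labels. Each RNA sample had been sequenced in 2 runs, which were added up, so that 10 of the 102 columns entered. The study dissected floral, bracteal, circumbracteal and foliar nectaries at several stages, each with the tissue next to it, and measured their RNA by sequencing. All plants were of one accession, were untreated and grew in chambers, and tissue was taken once the first flower had opened. Each RNA sample pooled several nectaries. The floral nectary lines the base of the inner (adaxial) calyx face and was taken on the day before anthesis. The circumbracteal nectary sits on the outer (abaxial) calyx face between the bracts and was taken from much younger buds, at the match-head square stage. Nectary type, calyx face and bud age cannot be told apart in this comparison. Other groups served as a reading aid: tissue adjacent to the floral and to the circumbracteal nectary at the same stages (3 RNA samples each), floral nectaries after anthesis and circumbracteal nectaries on bolls as the post-secretory pair (3 each), and pre-secretory bracteal nectaries (2), which also came from match-head squares. The labels do not say that the samples of a group came from separate plants, so the spread behind the p-values may be technical. One fit over all 51 RNA samples pooled that spread over all groups. The p-values and standard errors (SE) therefore do not measure the spread of these 5 samples alone.

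Both nectaries are patches of multicellular glandular trichomes, the papillae, above a subtending parenchyma. In the model worked out mainly in Arabidopsis, starch stored in the nectary is broken down, sucrose is rebuilt from it, the uniporter SWEET9 exports the sucrose and the cell wall invertase CWINV4 splits it outside the cell, which draws water after it. Nectary identity in Arabidopsis needs the YABBY transcription factor CRABS CLAW and the BLADE-ON-PETIOLE proteins, and in tobacco the factor MYB305 switches on nectary genes before the flower opens. A papilla is an epidermal structure with a cuticle, so genes of cutin, wax and trichome formation are of interest beside those of sugar handling.

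The values are a signal per gene, divided here by the upper-quartile factor of each RNA sample and called normalised values below. They are not comparable in level between genes, and near-identical copies of a gene (upland cotton is an allotetraploid) can share reads in a way the sources used here do not give. The summed signal was 9955370 and 12215148 in the floral libraries and 9226619 to 10620745 in the circumbracteal libraries. The libraries differed in how many genes they detected. The 46113 genes tested had values of 10 or more, before division by the upper-quartile factor, in 2 or more of the 51 RNA samples. Of these, 3691 and 4774 were listed at 0 in the floral samples, against 8289, 9864 and 15880 in circumbracteal samples 1, 2 and 3. The 5 most abundant entries took 6.75% and 14.5% of the signal in the floral libraries, and 22.8% to 36.5% in the circumbracteal libraries. The circumbracteal replicates had 1.59 times the pooled spread and the floral replicates 0.886 times. The SE and p-values below rest on the pooled spread, which understates that of the circumbracteal group. Fewer cells of a type and less RNA per cell cannot be told apart in such bulk samples. The defining nectary markers were divided: CWINV4 matches had high values in the floral samples, both SWEET9-like genes were listed at 0 in every circumbracteal sample, and the CRABS CLAW-like gene was at or near 0 in the floral samples, with values given below. The summed xylem and phloem markers were 995.1 and 1133 in floral samples and 1267 to 1401 in circumbracteal samples, with 2 of 32 members called higher, 0 lower, and 3 members listed at 0 throughout the circumbracteal group. The 4 tapetum and pollen markers tested summed to 29.4 and 48.2 in floral samples and to 4 to 11 in circumbracteal samples, with 1 called higher (0 without floral sample 1 or circumbracteal sample 1). The part of other cell types in the results below was not tested.

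The day-before-anthesis floral nectary had far more RNA of a small set of regulators. These were mini zinc finger proteins, MYB340- and MYB305-like factors, bZIP53-like factors, and petal and stamen MADS-box genes. It also had far more RNA of cell wall invertases and of some, but not all, SWEET10-like transporters. The young circumbracteal nectary had more RNA for cell division, light harvesting, flavonoid synthesis, wax and cutin formation, lipid transfer and water channels. A call took a change of at least 1.5-fold and a Benjamini-Hochberg adjusted p below 0.05 (limma, one fit over all 51 RNA samples). Of the 46113 genes, 6299 were higher in floral nectaries (13.7%) and 3584 were lower (7.77%). With any single one of the 5 samples left out, 1701 of the higher and 1179 of the lower genes kept their call each time (3.69% and 2.56% of the genes tested). The median log2 difference over all genes tested was 0.40. Dividing by column totals shifted that median to 0.70 and gave 7697 higher and 2378 lower calls. Log2 differences below are therefore to be read against a median of 0.40. List counts between nectaries from the fit over all 51 RNA samples are to be read against 13.7% higher and 7.77% lower. These shares do not hold for the other fits. Fitted alone, the 5 samples gave 2088 higher and 1111 lower calls among the 46113 genes. Fewer genes were also called without either floral sample or circumbracteal sample 3, and more without circumbracteal sample 1 or 2. A smaller list count in such a fit can therefore reflect fewer calls over all genes.

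**Figure D1:**
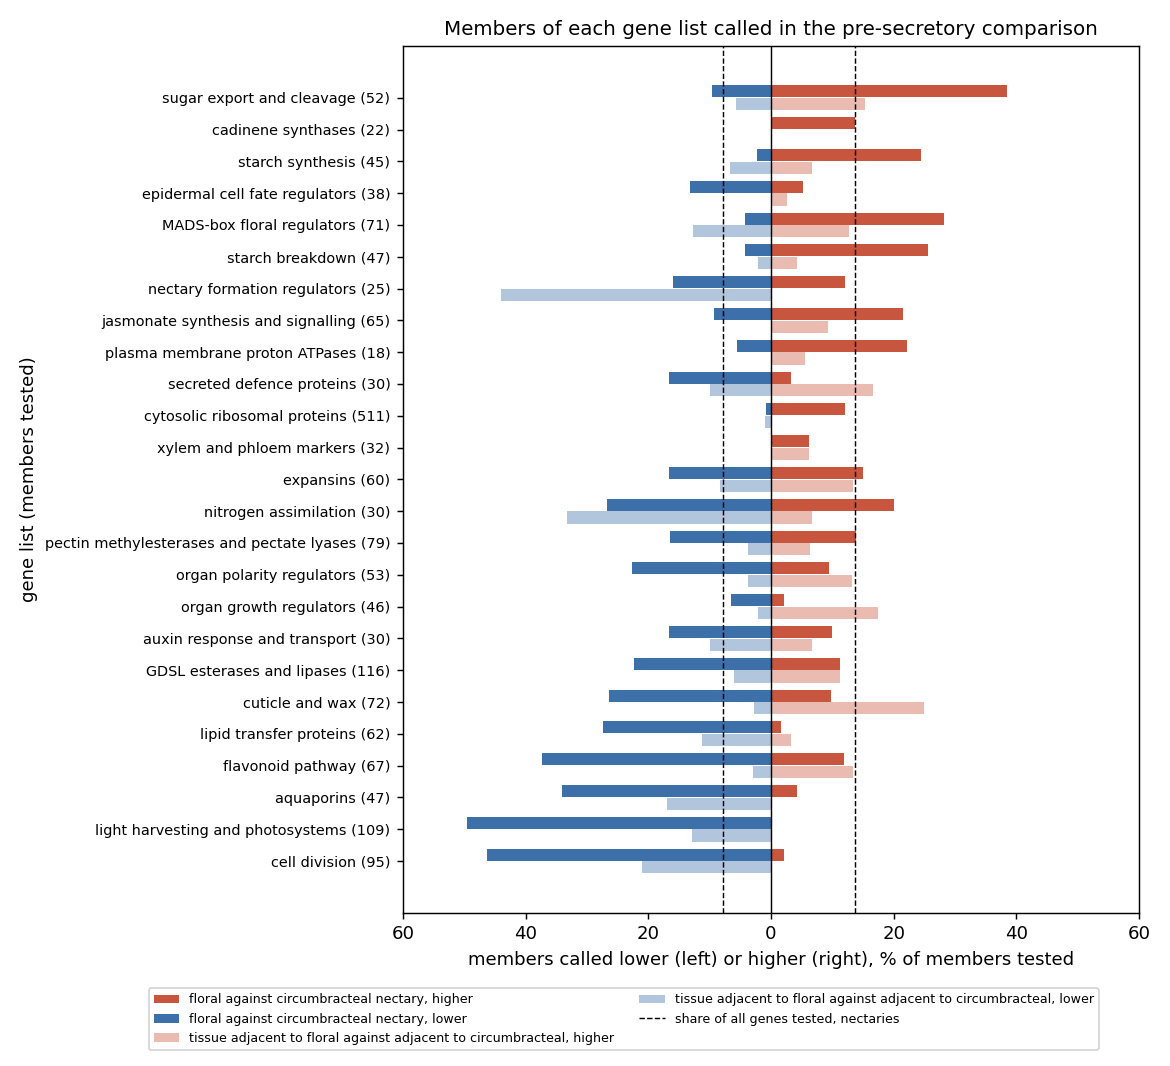
Share of the members of each gene list but the tapetum and pollen markers called higher (right, red) or lower (left, blue) in the pre-secretory floral against the circumbracteal nectary (dark bars) and in the tissue adjacent to each (pale bars), as % of members tested, lists ordered by median log2 difference. Dashed lines mark the shares over all genes tested in the nectary comparison, 13.7% higher and 7.77% lower; sugar export and cleavage stands far to the right and cell division, light harvesting, the flavonoid pathway and aquaporins far to the left.

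Several of the largest rises were in regulators. Mini zinc finger proteins are short proteins that bind larger zinc finger homeodomain factors and block them. LOC107956890, mini zinc finger protein 2-like, had normalised values of 76570 and 53170 in floral nectaries, against 2.44, 1722 and 5.34 in circumbracteal nectaries (log2 difference 10.90 ± 1.77 SE, adjusted p = 2.57e-05). Its relative LOC107940763 had 14700 and 10180 in floral nectaries, and 0, 420.3 and 0 in circumbracteal nectaries (10.67 ± 1.54, adjusted p = 4.16e-06). Circumbracteal sample 2 stood above the other two of its group for both, and every floral value lay above every circumbracteal one. The same genes were high in the tissue adjacent to the floral nectary: LOC107956890 averaged 14440 there and 85.03 next to the circumbracteal nectary. The difference of its differences, 0.54, was not called (adjusted p = 0.947).

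The MYB factors followed the same layout. XP_016712924.1, MYB340-like with Arabidopsis MYB24 as its best match, had 31010 and 19450 in floral nectaries and 0, 899.3 and 3.56 in circumbracteal nectaries (10.58 ± 1.96, adjusted p = 0.00015). LOC107892278, MYB305-like and nearest to MYB21, had 4194 and 1831 in floral nectaries and 0, 160.1 and 0 in circumbracteal nectaries (8.99 ± 1.38, adjusted p = 1.14e-05). LOC107888681, also MYB305-like, had 7711 and 4784 in floral nectaries and 0, 350.9 and 48.03 in circumbracteal nectaries (7.88 ± 1.63, adjusted p = 0.000576). MYB21 and MYB24 act downstream of jasmonate in Arabidopsis stamens and petals. All 3 were also called higher in floral adjacent tissue (2.98% of all genes were), where XP_016712924.1 averaged 8783, against 150.7 next to the circumbracteal nectary. In bracteal nectaries of the same bud stage as the circumbracteal ones, the means of these 3 genes were 88.9, 1.86 and 9.77.

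The value of circumbracteal sample 2 recurred across the genes of this kind. Among 24 genes with a floral mean of at least 1000 and values under 10 in circumbracteal samples 1 and 3, 18 had 10 or more in sample 2 and 7 had 100 or more. Floral adjacent tissue had a mean of 100 or more for 12 of the 24 genes, and all 12 were among the 18, as were 6 of the 12 with a lower mean there. The same search with sample 1 or sample 3 as the odd one gave 0 of 6 genes each. These are the same 6 genes both times, those under 10 in all 3 circumbracteal samples. This count was chosen after the values were seen, and its part in the spread of the circumbracteal group was not tested. The mini zinc finger and MYB genes named above kept their calls with any single sample left out, but lost them when the 5 samples were fitted alone.

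Other regulators differed in the nectary beyond the surrounding tissue. Basic leucine zipper factors of the bZIP53 kind are known in Arabidopsis seeds and in the response to low energy. Both genes below are bZIP53-like by description only. Their best Arabidopsis match is AT3G49760, so these roles need not be theirs. LOC107892807, bZIP transcription factor 53-like, had 10930 and 4781 in floral nectaries and 0, 13.34 and 3.56 in circumbracteal nectaries (10.81 ± 1.27, adjusted p = 1.08e-07). LOC107889957 had 5044 and 2327 in floral nectaries and 0, 32.02 and 0 in circumbracteal nectaries (10.06 ± 1.54, adjusted p = 1.08e-05). When the 5 samples were fitted alone, LOC107889957 lost its call and LOC107892807 kept it. Next to the nectaries LOC107892807 averaged 48.57 on the floral and 4.84 on the circumbracteal side, and LOC107889957 8.10 on the floral and 12.0 on the circumbracteal side. The nectary difference exceeded the adjacent difference for both, by 7.37 ± 1.70 (adjusted p = 0.00763) and 10.28 ± 2.07 (adjusted p = 0.00203), a call made for 2.34% of all genes in that direction. Both remained called higher in the post-secretory floral nectary, where LOC107892807 averaged 1883, against 0 in the post-secretory circumbracteal nectary.

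**Figure D2:**
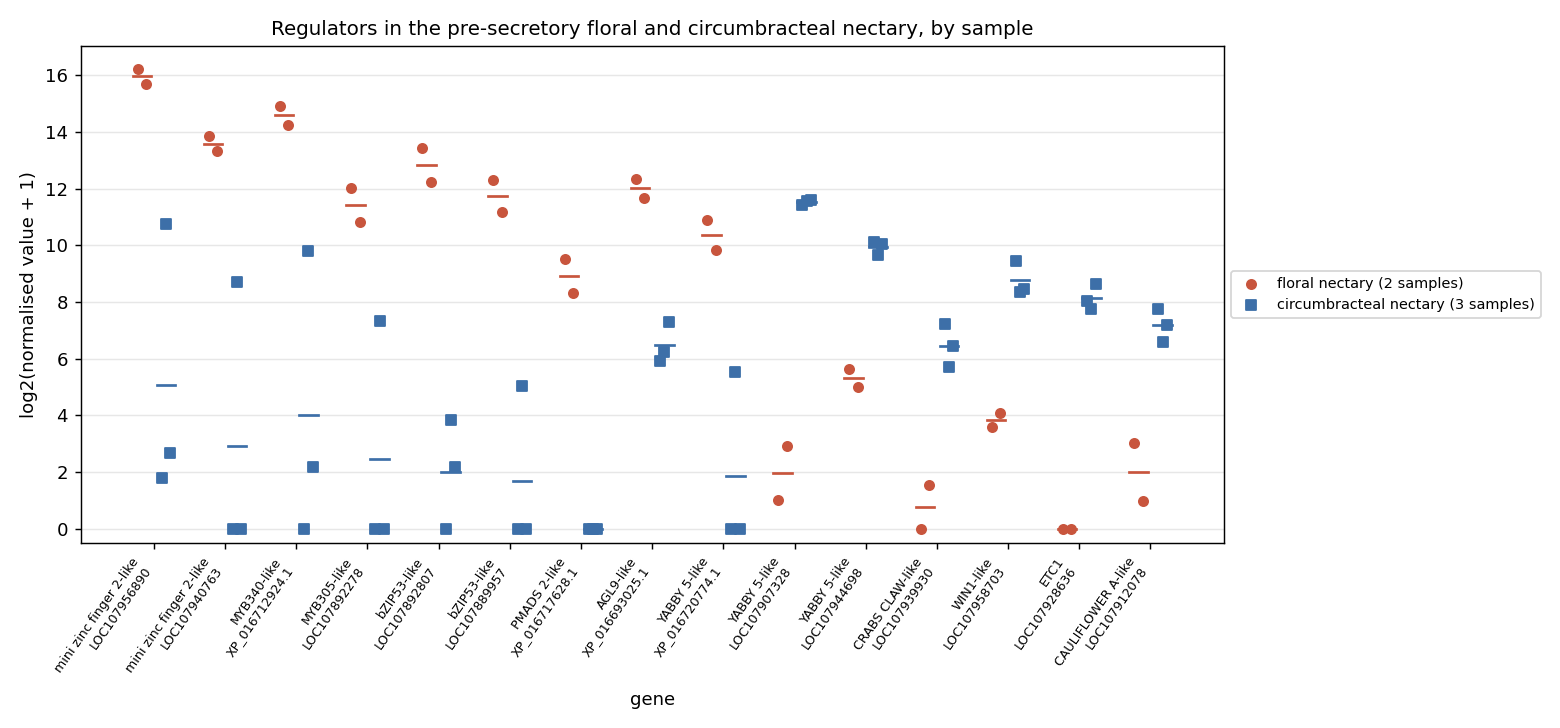
Regulators by sample: log2(normalised value + 1) in 2 floral (red circles, left of each pair) and 3 circumbracteal samples (blue squares), with short lines at group means. The mini zinc finger, MYB, bZIP53-like and PMADS 2-like genes separate upward in the floral nectary, with circumbracteal sample 2 between the groups for several, and the CRABS CLAW-like, ETC1 and CAULIFLOWER A-like genes separate downward.

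The remaining large rises lay outside the regulators. XP_016676640.1, a major allergen Pru ar 1-like protein of the PR-10 family, had 5521 and 2199 in floral nectaries and 0, 2.67 and 0 in circumbracteal nectaries (11.14 ± 1.21, adjusted p = 2.74e-08). LOC107889235, an arogenate dehydratase, the enzyme of the last step to phenylalanine, had 9146 and 5283 in floral nectaries and 4.89, 40.03 and 1.78 in circumbracteal nectaries (9.63 ± 1.13, adjusted p = 1.12e-07). LOC107899584, a thiol reductase of the GILT kind, had 3430 and 1540 in floral nectaries and 9.77, 0 and 0 in circumbracteal nectaries (10.02 ± 1.34, adjusted p = 1.11e-06). None of these was called in the adjacent tissues, and all 3 were called for the difference of differences.

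A further 4 of the 12 largest rises were listed at 0 in all 3 circumbracteal samples, so no fold change is given. LOC107963763, cytochrome P450 87A3-like, had 3578 and 1507 in floral nectaries (adjusted p = 4.47e-09). XP_016696812.1, peroxidase 16-like, had 2083 and 1232 (adjusted p = 1.32e-10), and XP_016672350.1, probable peroxygenase 3, had 988.9 and 781.8 (adjusted p = 2.67e-11). XP_016686659.1, boron transporter 1-like, had 326.3 and 1279, the single one of the 4 with the higher value in floral sample 2 (adjusted p = 2.29e-07). All 4 were higher in the floral than in the circumbracteal nectary after secretion as well, as 9.76% of all genes were. In floral adjacent tissue their means were 26.69, 0.903, 4.81 and 2.65 in the order given. Of the 12 largest rises, 8 were also called when the 5 samples were fitted alone.

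Sugar export and cleavage leaned to the floral nectary, with 20 of 52 members higher, 5 lower and a median log2 difference of 1.99. Fitted alone, the 5 samples gave 12 higher and 2 lower. Summed over the list, the level was 109300 and 45800 in floral nectaries and 8927 to 15890 in circumbracteal nectaries. A large part of the floral sums came from XP_016738296.1 and LOC107899251, described next. CWINV4 was the best match of 5 genes, and all 5 were called higher. XP_016738296.1 had 55470 and 18250 in floral nectaries and 648.7, 2447 and 1018 in circumbracteal nectaries (4.76 ± 1.27, adjusted p = 0.00632), a call lost without floral sample 1 (adjusted p = 0.105). LOC107899251 had 21930 and 7814 in floral nectaries and 123.4, 785.9 and 10.67 in circumbracteal nectaries (6.97 ± 1.60, adjusted p = 0.00172). Floral sample 1 was above floral sample 2 in both genes, and the floral values did not overlap the circumbracteal ones.

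The other 3 invertase genes were nearly absent from the circumbracteal nectary. XP_016716713.1 had 1722 and 899.3 in floral nectaries and 0, 9.34 and 0 in circumbracteal nectaries (9.16 ± 1.10, adjusted p = 1.57e-07). XP_016716712.1 had 818.2 and 366.8 in floral nectaries and 0, 0 and 1.78 in circumbracteal nectaries (8.61 ± 0.94, adjusted p = 3.08e-08). LOC107896340 had 597.4 and 309.9 in floral nectaries and 0, 5.34 and 0 in circumbracteal nectaries (7.87 ± 1.01, adjusted p = 5.38e-07). For all 5 the nectary difference exceeded the difference between adjacent tissues, in which none was called. The last 3 genes stayed higher in the post-secretory floral nectary (means of 540.9, 201.8 and 628 there, and 0.483, 0 and 0 in the post-secretory circumbracteal nectary), whereas for XP_016738296.1 the post-secretory means were 983.3 in floral and 914.5 in circumbracteal nectaries and no call was made.

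SWEET transporters divided by kind. SWEET9-like genes were present in the floral nectary at low values only: XP_016707926.1 had 28.11 and 22.74 in floral nectaries and 0 in all circumbracteal nectaries (adjusted p = 1.32e-10), and XP_016673587.1 had 42.17 and 5.69, again with 0 throughout the circumbracteal nectary (adjusted p = 0.000124). Both averaged more in secretory floral nectaries, 191 and 111.8. SWEET10-like genes belong to the same clade of sucrose exporters. XP_016739806.1 had 1495 and 423.6 in floral nectaries and 1.22, 18.68 and 0 in circumbracteal nectaries (7.82 ± 1.13, adjusted p = 4.43e-06). LOC107946596 had 3577 and 940.1 in floral nectaries and 62.31, 557.7 and 0 in circumbracteal nectaries (5.81 ± 1.63, adjusted p = 0.00951), a call lost without floral sample 1 (adjusted p = 0.124) or circumbracteal sample 3 (adjusted p = 0.136). LOC107946870 had 2963 and 621.7 in floral nectaries and 261.4, 1061 and 126.3 in circumbracteal nectaries, and the groups overlapped (2.05 ± 1.08, adjusted p = 0.176).

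Other members of the list ran the opposite way. Both SWEET12-like genes, homologues of the exporters that load phloem in Arabidopsis leaves, were listed at 0 in the floral nectary. LOC107923749 had 515.6, 222.8 and 186.8 in circumbracteal nectaries (adjusted p = 1.2e-06), and XP_016695604.1 had 370.2, 74.72 and 42.7 (adjusted p = 7.58e-06). Vacuolar invertase XP_016721183.1 had 4.02 and 0.95 in floral nectaries and 51.31, 40.03 and 76.5 in circumbracteal nectaries (-4.14 ± 0.83, adjusted p = 0.000374). Sucrose synthase splits sucrose inside the cell, and its genes went both ways. XP_016673840.1 had 15270 and 9700 in floral nectaries and 849.1, 3705 and 1066 in circumbracteal nectaries (3.02 ± 0.54, adjusted p = 9.71e-05). XP_016750206.1, with the same best match, had 1099 and 665.3 in floral nectaries and 7008, 5833 and 5433 in circumbracteal nectaries (-2.82 ± 0.50, adjusted p = 7.72e-05). After secretion both differences ran the other way and were called: XP_016673840.1 averaged 1385 in floral and 6693 in circumbracteal nectaries, and XP_016750206.1 2033 in floral and 583.4 in circumbracteal nectaries. The change of direction between stages was not tested.

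**Figure D3:**
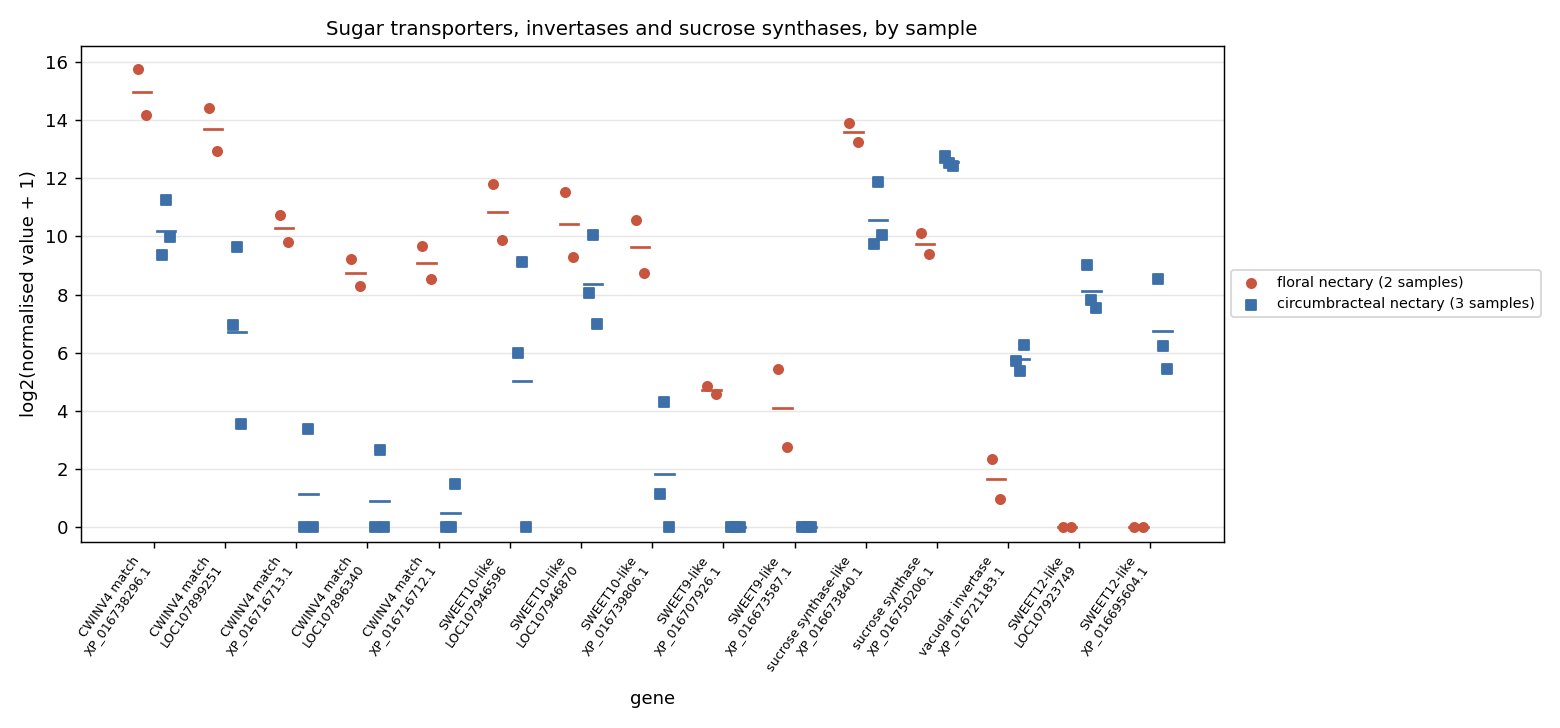
Sugar transporters, invertases and sucrose synthases by sample: log2(normalised value + 1) in 2 floral (red circles, left of each pair) and 3 circumbracteal samples (blue squares), with short lines at group means. The 5 CWINV4 matches and the SWEET9-like genes lie higher in the floral nectary without overlap, LOC107946870 overlaps, and the vacuolar invertase and SWEET12-like genes lie lower in the floral nectary.

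Starch genes leaned the same way as sugar export. Of 45 starch synthesis genes tested, 11 were higher and 1 lower (median 1.16), and of 47 starch breakdown genes 12 were higher and 2 lower (median 0.88). The summed level of starch synthesis genes was 15660 and 16180 in floral nectaries and 4941 to 7557 in circumbracteal nectaries. Granule-bound starch synthase, which makes amylose, was among them: XP_016738228.1 had 1628 and 2418 in floral nectaries and 259, 517.7 and 451.9 in circumbracteal nectaries (2.33 ± 0.35, adjusted p = 6.88e-06). Starch synthase 4 gene XP_016680458.1, linked to granule initiation, ran against the list with 14.06 and 15.16 in floral nectaries and 78.19, 72.05 and 87.17 in circumbracteal nectaries (-2.36 ± 0.48, adjusted p = 0.000517). On the breakdown side, beta-amylase 3 gene XP_016736632.1, of the enzyme that releases maltose from starch, had 54.21 and 36.96 in floral nectaries and was listed at 0 in the circumbracteal nectary (adjusted p = 0.000117). Fitted alone, the 5 samples gave 5 higher and 0 lower genes in the breakdown list, and 4 higher and 1 lower in the synthesis list. Over all 46113 genes that fit gave 2088 higher and 1111 lower. The breakdown list also had fewer higher genes without floral sample 2, as did all genes together.

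MADS-box regulators of flower organs were higher in the floral nectary for 20 of 71 members and lower for 3 (median 0.91). The count was 12 without floral sample 1. Genes matching PISTILLATA, which specifies petals and stamens, were listed at 0 in all circumbracteal samples. XP_016717628.1, floral homeotic protein PMADS 2-like, had 726.9 and 320.3 in floral nectaries (adjusted p = 1.2e-07) and XP_016725848.1 had 575.3 and 209.4 (adjusted p = 5.73e-06). In floral adjacent tissue they averaged 14.37 and 12.09, and both differences of differences were called. XP_016693025.1, AGL9 homolog and nearest to SEPALLATA3, a partner of the organ identity factors, had 5180 and 3271 in floral nectaries and 59.86, 73.38 and 156.6 in circumbracteal nectaries (5.53 ± 0.49, adjusted p = 4.47e-10). This gene was also called higher between the adjacent tissues, with means of 1501 next to the floral and 25.84 next to the circumbracteal nectary. Lower were LOC107912078, a CAULIFLOWER A-like factor, with 7.03 and 0.95 in floral nectaries and 216.2, 96.06 and 144.1 in circumbracteal nectaries (-5.20 ± 0.79, adjusted p = 9.75e-06), and LOC107923320, MADS-box factor 23-like (-3.43 ± 0.74, adjusted p = 0.000906).

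The known nectary formation regulators moved in both directions. Of 25 genes tested, 3 were higher and 4 lower, and 1 in each direction without floral sample 1. The CRABS CLAW-like gene LOC107939930, the single cotton gene with that best match, had 0 and 1.90 in floral nectaries and 149.1, 50.7 and 87.17 in circumbracteal nectaries (-5.69 ± 0.88, adjusted p = 1.23e-05). It was lower in floral adjacent tissue too, with means of 3.89 next to the floral and 35.8 next to the circumbracteal nectary, and remained lower after secretion (1.88 in floral and 60.59 in circumbracteal nectaries). LOC107891351, an NPR5-like gene of the BLADE-ON-PETIOLE kind, had 39.15 and 78.66 in floral nectaries and 7.33, 0 and 0 in circumbracteal nectaries (4.80 ± 0.85, adjusted p = 8.93e-05). The SHI/STYLISH family, needed for nectaries in *Aquilegia*, had a member with high values in both nectaries. LOC107910209, SHI RELATED SEQUENCE 5-like, had 875.5 and 623.6 in floral nectaries and 494.8, 532.4 and 371.8 in circumbracteal nectaries (0.68 ± 0.64, adjusted p = 0.483). In the adjacent tissues it averaged 3.95 next to the floral and 449.2 next to the circumbracteal nectary, and the difference of differences was 7.27 ± 0.86 (adjusted p = 8.68e-07). In the adjacent tissues 11 of the 25 genes were lower on the floral side and 0 higher (over all genes, 2.9% lower and 2.98% higher), and 8 of 25 were called higher for the difference of differences (2.34% of all genes).

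YABBY genes, which mark the abaxial side of lateral organs, went both ways. LOC107907328, axial regulator YABBY 5-like, had 1.00 and 6.63 in floral nectaries and 2719, 3045 and 3129 in circumbracteal nectaries (-9.56 ± 1.26, adjusted p = 9.76e-07). LOC107944698 was lower as well, with 48.19 and 31.27 in floral nectaries and 1120, 815.2 and 1064 in circumbracteal nectaries (-4.64 ± 0.84, adjusted p = 0.00012). XP_016720774.1, with the same description, had 1895 and 900.3 in floral nectaries and 0, 45.36 and 0 in circumbracteal nectaries (8.51 ± 1.13, adjusted p = 9.97e-07). The first and the third differed in the same direction between the adjacent tissues. In all, 5 of 53 organ polarity genes were higher and 12 lower. Fitted alone, the 5 samples gave 2 higher and 2 lower in this list, and 2088 higher and 1111 lower over all 46113 genes.

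Jasmonate genes were higher in 14 of 65 cases and lower in 6, and the higher ones began with the MYB21 and MYB24 matches described above. The list summed to 53720 and 41590 in floral nectaries and 9717 to 14690 in circumbracteal nectaries, and the 3 MYB genes carried most of that difference. Without them the other 62 members summed to 10800 and 15530 in floral nectaries and 9716, 13280 and 10650 in circumbracteal nectaries, and the groups overlapped. The count of higher members was 4 without floral sample 2, 7 without circumbracteal sample 3 and 0 when the 5 samples were fitted alone, and the count of lower members was 2 without floral sample 1. JAZ repressors went both ways, and the lower ones included the TIFY 10A-like genes LOC107901045, with 30.12 and 40.75 in floral nectaries and 119.7, 133.4 and 99.62 in circumbracteal nectaries (-1.71 ± 0.43, adjusted p = 0.00394), and LOC107951092 (-1.53 ± 0.43, adjusted p = 0.00962). Neither kept its call without floral sample 1 (adjusted p = 0.0689 and 0.16), and LOC107951092 also lost it without circumbracteal sample 2 (adjusted p = 0.0614). Auxin response and transport genes were higher in 3 and lower in 5 of 30 cases, with 0 higher without floral sample 2 and 1 lower without floral sample 1.

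Cell division genes had the lowest median of the lists. Of 95 members, 44 were lower and 2 higher, the median log2 difference was -2.37, and the summed level was 1420 and 1080 in floral nectaries and 5839 to 8222 in circumbracteal nectaries. Across the fits that left a sample out, 23 to 43 members were lower, fewest without floral sample 2, 22 were lower in all of them, and 13 were lower when the 5 samples were fitted alone. The mitotic kinase gene XP_016706395.1, cell division control protein 2 homolog D (CDKB2;2 match), had 3.01 and 0 in floral nectaries and 284.6, 257.5 and 551.5 in circumbracteal nectaries (-7.42 ± 1.14, adjusted p = 1.15e-05). LOC107959781, cyclin-dependent kinase B1-2-like, had 0 and 0.95 in floral nectaries and 186.9, 126.8 and 291.8 in circumbracteal nectaries (-7.10 ± 1.08, adjusted p = 8.92e-06). The replication clamp PCNA, XP_016740519.1, was still present, with 201.8 and 132.7 in floral nectaries and 1187, 1345 and 1432 in circumbracteal nectaries (-3.00 ± 0.50, adjusted p = 3.87e-05). The higher pair was a CDC20 gene, XP_016686525.1, whose groups overlapped, and the cyclin D3 gene LOC107914329, with 379.5 and 194.3 in floral nectaries and 160, 105.4 and 32.02 in circumbracteal nectaries (1.72 ± 0.59, adjusted p = 0.0334). Each of the pair lost its call without floral sample 1, floral sample 2 or circumbracteal sample 3 (adjusted p between 0.0508 and 0.284), and the CDC20 gene also without circumbracteal sample 2. In the adjacent tissues 20 of the 95 were lower on the floral side and 0 higher (over all genes, 2.9% and 2.98%). For the difference of differences 2 were called lower (1.42% of all genes). After secretion 17 were higher and 1 lower in the floral nectary (over all genes, 9.76% higher and 4.45% lower).

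Light harvesting and photosystem genes were lower in 54 of 109 cases and higher in 0, with a median of -1.76. Their sum was 12330 and 12830 in floral nectaries and 37710 to 52490 in circumbracteal nectaries. LOC107903392, a photosystem I subunit V gene, had 14.06 and 27.48 in floral nectaries and 419, 503 and 494.6 in circumbracteal nectaries (-4.51 ± 0.48, adjusted p = 1.79e-08). LOC107907115, which matches photosystem II subunit X best, had 13.05 and 27.48 in floral nectaries and 554.6, 533.7 and 779.2 in circumbracteal nectaries (-4.94 ± 1.00, adjusted p = 0.000426). In the adjacent tissues 14 members were lower on the floral side (2.9% of all genes were) and 0 higher. After secretion the list ran the other way, with 57 members higher in the floral nectary and 2 lower (over all genes, 9.76% and 4.45%). The count of lower members was 33 without floral sample 1 and 26 when the 5 samples were fitted alone.

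The flavonoid pathway was lower in 25 of 67 members and higher in 8, with a median of -1.02, and summed to 4858 and 4798 in floral nectaries and 32380 to 50620 in circumbracteal nectaries. Chalcone synthase, the first committed enzyme, led the fall. XP_016699436.1 had 72.29 and 78.66 in floral nectaries and 6888, 3225 and 5497 in circumbracteal nectaries (-6.02 ± 0.80, adjusted p = 1.03e-06), and XP_016699432.1 had 43.17 and 40.75 in floral nectaries and 2611, 1803 and 1761 in circumbracteal nectaries (-5.56 ± 0.94, adjusted p = 4.58e-05). Anthocyanidin reductase XP_016726801.1, which commits the pathway to proanthocyanidins, had 170.7 and 217 in floral nectaries and 6122, 5278 and 3110 in circumbracteal nectaries (-4.59 ± 0.65, adjusted p = 2.84e-06). None of these 3 genes was called between the adjacent tissues. XP_016699436.1 averaged 2299 in floral and 2050 in circumbracteal adjacent tissue, and its difference of differences was -6.14 ± 1.07 (adjusted p = 0.000367). In all, 16 of the 67 members were called lower for the difference of differences and 2 higher (over all genes, 1.42% and 2.34%). Between the adjacent tissues 9 were higher on the floral side and 2 lower (over all genes, 2.98% and 2.9%). The 8 higher members, each listed at 0 in at least 1 of the 5 samples, included 2 chalcone synthase-like and 2 flavonol synthase-like genes. The largest rise was in XP_016701767.1, cytochrome P450 CYP736A12-like and matched to the flavonoid 3'-hydroxylase, which had 679.7 and 811.2 in floral nectaries and 0, 28.02 and 0 in circumbracteal nectaries (7.92 ± 1.23, adjusted p = 1.23e-05). It was also higher between the adjacent tissues, at means of 272.7 next to the floral and 2.28 next to the circumbracteal nectary.

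Cuticle genes differed from their surroundings as well. Of 72 cuticle and wax genes, 19 were lower and 7 higher in the floral nectary (median -0.95), whereas next to the nectaries 18 were higher on the floral side and 2 lower (over all genes, 2.98% and 2.9%), and 21 were called lower for the difference of differences and 0 higher (over all genes, 1.42% and 2.34%). XP_016753841.1, ECERIFERUM 1-like and of the enzyme that forms wax alkanes, had 17.07 and 9.48 in floral nectaries and 1631, 2426 and 1676 in circumbracteal nectaries (-7.09 ± 0.83, adjusted p = 1.09e-07). LOC107958703, matching the wax and cutin activator WIN1, had 11.04 and 16.11 in floral nectaries and 700, 328.2 and 354 in circumbracteal nectaries (-4.92 ± 1.05, adjusted p = 0.000807). Among the higher members, the 3-ketoacyl-CoA synthase gene XP_016708994.1, which elongates wax precursors, had 219.9 and 107.1 in floral nectaries and 1.22, 16.01 and 0 in circumbracteal nectaries (5.53 ± 0.99, adjusted p = 0.000102). Without floral sample 1, 12 members were lower and 3 higher.

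GDSL esterases and lipases, a large family that includes cutin-polymerising enzymes, were lower in 26 of 116 members and higher in 13. LOC107893829 was listed at 0 in both floral samples and had 1974, 687.1 and 706.2 in circumbracteal nectaries (adjusted p = 4.53e-09). LOC107918505 had 1.00 and 0.95 in floral nectaries and 2740, 796.5 and 1206 in circumbracteal nectaries (-9.45 ± 1.13, adjusted p = 1.44e-07). LOC107961921, of the same description as these, was listed at 0 in both floral samples and had 295.6, 258.8 and 217 in circumbracteal nectaries (adjusted p = 6.97e-08). Unlike the first pair, it was present next to the floral nectary, with a mean of 588.4 in floral and 297.9 in circumbracteal adjacent tissue, and its difference of differences was called (adjusted p = 1.94e-05). The family was not uniform: XP_016689608.1, GDSL esterase/lipase 1-like, had 441.8 and 319.4 in floral nectaries and was listed at 0 in all circumbracteal samples (adjusted p = 3.74e-07). Over the family 21 members were called lower for the difference of differences and 6 higher (over all genes, 1.42% and 2.34%). The higher members between nectaries numbered 5 without floral sample 1 and 6 without floral sample 2 or circumbracteal sample 3.

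**Figure D4:**
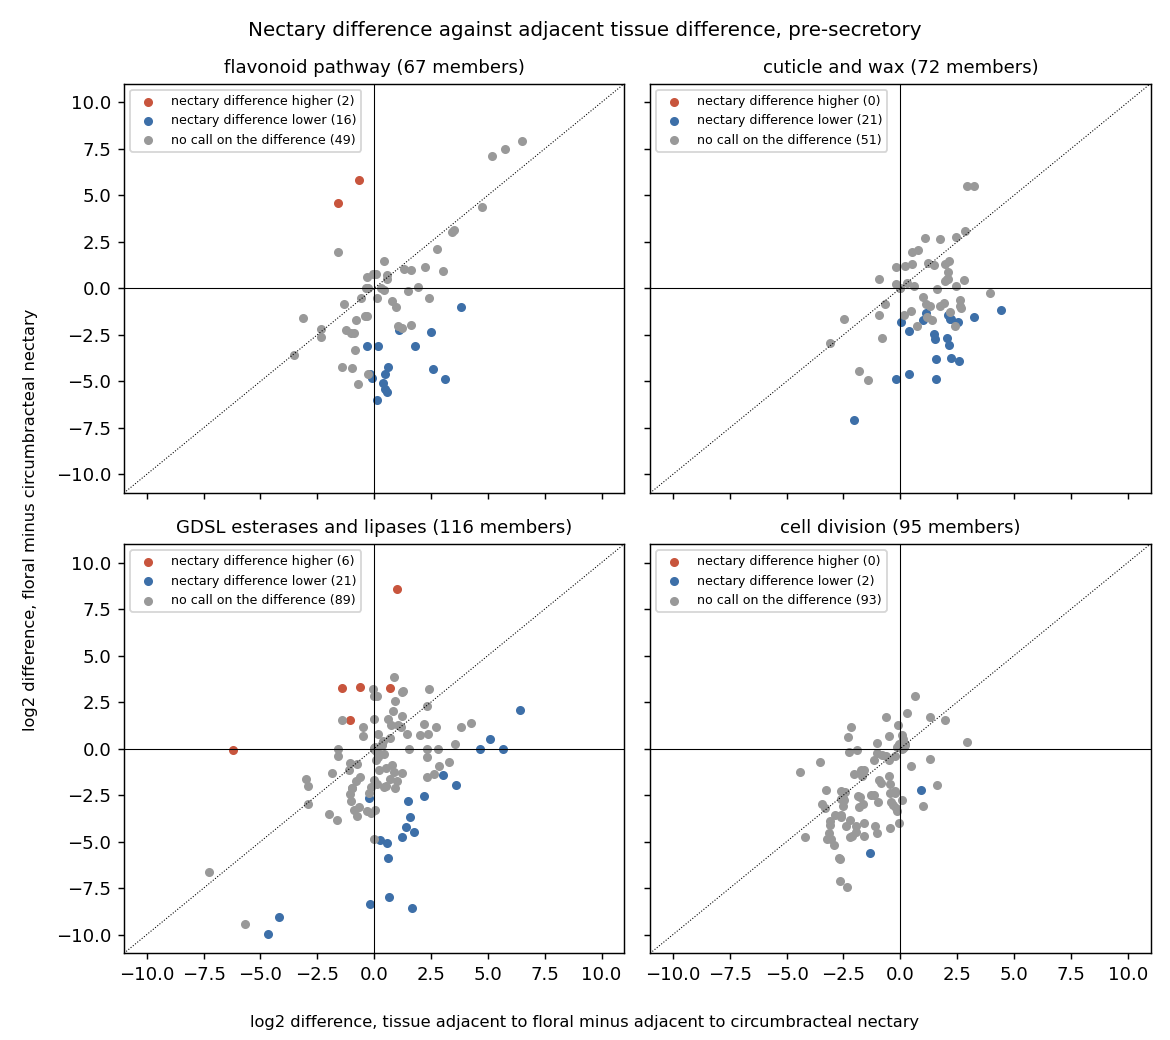
Each point is a gene of the flavonoid, cuticle, GDSL or cell division list, with its log2 difference between adjacent tissues (floral minus circumbracteal side) on the horizontal axis and its log2 difference between nectaries (floral minus circumbracteal) on the vertical axis. The dotted line marks equal differences; blue points are called lower for the difference of differences (16, 21, 21 and 2 genes in these lists), and most cell division genes lie below 0 on both axes.

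Lipid transfer proteins, small secreted proteins that carry cuticle lipids among others, were lower in 17 of 62 cases (10 without floral sample 2) and higher in 1. LOC107896903, matching DIR1 of systemic resistance, had 0 and 22.74 in floral nectaries and 4332, 3645 and 5766 in circumbracteal nectaries (-9.85 ± 1.90, adjusted p = 0.000251). LOC107921426, non-specific lipid-transfer protein 4-like, was listed at 0 in both floral samples and had 300.5, 236.2 and 731.1 in circumbracteal nectaries (adjusted p = 3.27e-05). Both were also lower in the floral adjacent tissue. Other secreted proteins among the 12 largest falls were a putative cell wall protein, XP_016690584.1, with 43.17 and 29.38 in floral nectaries and 24030, 8974 and 12400 in circumbracteal nectaries (-8.57 ± 1.32, adjusted p = 1.15e-05), and the proline-rich protein XP_016694926.1, listed at 0 in floral samples, with 709.8, 301.5 and 460.8 in circumbracteal nectaries (adjusted p = 1.02e-07). The aspartyl protease AED3-like gene XP_016741951.1 had 0 and 0.95 in floral nectaries and 631.6, 532.4 and 466.1 in circumbracteal nectaries (-8.60 ± 1.11, adjusted p = 6.01e-07). Both XP_016694926.1 and XP_016741951.1 were higher in the floral nectary after secretion, at means of 26.93 and 86.16 in floral and 0 and 1.48 in circumbracteal nectaries.

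Falling regulators included factors of organ outgrowth and epidermal patterning. XP_016715419.1, an ESR2-like factor that acts in early organ formation in Arabidopsis, had 0 and 2.84 in floral nectaries and 511.9, 624.4 and 964.2 in circumbracteal nectaries (-8.43 ± 0.90, adjusted p = 1.9e-08). It was lower next to the floral nectary too, where it was listed at 0, against a mean of 111.5 next to the circumbracteal nectary. LOC107928636, the single-repeat MYB ETC1, which represses trichome fate in Arabidopsis, was listed at 0 in floral samples and had 262.7, 214.8 and 393.1 in circumbracteal nectaries (adjusted p = 2.38e-06). LOC107920865, described as U1 small nuclear ribonucleoprotein C-like and without an Arabidopsis match, was also listed at 0 in floral samples, with 23510, 19230 and 6653 in circumbracteal nectaries (adjusted p = 1.12e-08) and a mean of 13590 in bracteal nectaries. Of 38 epidermal cell fate genes, 2 were higher (0 without floral sample 2) and 5 lower, while the list's median was 1.00. Organ growth regulators, 46 tested, had 1 higher and 3 lower and 0 in each direction that kept the call in every fit leaving a sample out.

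Water channel genes were called lower more often than higher. Of 47 aquaporins, 16 were lower and 2 higher (median -1.34), and the list summed to 19120 and 15300 in floral nectaries and 47360 to 56620 in circumbracteal nectaries. XP_016714450.1, a plasma membrane aquaporin of the PIP1 kind, had 9.04 and 2.84 in floral nectaries and 1339, 607.1 and 571 in circumbracteal nectaries (-6.96 ± 0.97, adjusted p = 2.39e-06), while it averaged 319.3 next to the floral and 346 next to the circumbracteal nectary. XP_016714451.1, probable aquaporin PIP2-8, had 3.01 and 0 in floral nectaries and 263.9, 138.8 and 56.93 in circumbracteal nectaries (-6.01 ± 1.09, adjusted p = 0.000112). Of 18 plasma membrane proton ATPase genes, which energise transport across the membrane, 4 were higher (2 without floral sample 1) and 1 lower. XP_016672899.1, plasma membrane ATPase 1-like, had 636.5 and 543 in floral nectaries and 58.64, 90.73 and 76.5 in circumbracteal nectaries (2.97 ± 0.30, adjusted p = 6.08e-09), and XP_016667955.1 was lower (-1.74 ± 0.45, adjusted p = 0.00441), a call lost without floral sample 1 (adjusted p = 0.0587).

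Nitrogen assimilation was divided, with 6 of 30 members higher (3 without floral sample 1 or floral sample 2) and 8 lower. Asparagine synthetase moves nitrogen into the main transport amide. XP_016668862.1 had 574.3 and 471.9 in floral nectaries and 47.65, 80.05 and 46.25 in circumbracteal nectaries (3.19 ± 0.54, adjusted p = 5.08e-05), and LOC107937167, with the same best match, had 652.6 and 898.4 in floral nectaries and 5991, 6754 and 6089 in circumbracteal nectaries (-3.03 ± 0.63, adjusted p = 0.000579). Plastid glutamine synthetase LOC107957078, which refixes ammonia in green cells, had 30.12 and 21.8 in floral nectaries and 767.2, 557.7 and 441.2 in circumbracteal nectaries (-4.43 ± 0.46, adjusted p = 9.63e-09). Both lower genes were also lower in the tissue next to the floral nectary. The higher gene XP_016668862.1 was likewise called higher there, with means of 106.9 next to the floral and 33.44 next to the circumbracteal nectary.

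Cell wall and defence lists were mixed. Expansins, which loosen walls, were higher in 9 and lower in 10 of 60 cases. LOC107897044, expansin-A11-like, had 44.17 and 61.6 in floral nectaries and was listed at 0 in circumbracteal nectaries (adjusted p = 3.07e-07), whereas LOC107887261, expansin-A15-like, had 12.05 and 8.53 in floral nectaries and 494.8, 421.6 and 713.4 in circumbracteal nectaries (-5.57 ± 0.70, adjusted p = 3.37e-07). Pectin methylesterases and pectate lyases were higher in 11 (4 without floral sample 2) and lower in 13 (6 without floral sample 1) of 79 cases, led by pectinesterase 29 gene LOC107942915, with 217.9 and 63.49 in floral nectaries and 0 in circumbracteal nectaries (adjusted p = 6.23e-11). Secreted defence proteins were higher in 1 and lower in 5 of 30 cases (0 and 3 without floral sample 1), and the lower ones included the endochitinase-like gene LOC107912863, with 22.09 and 17.06 in floral nectaries and 751.3, 768.5 and 412.7 in circumbracteal nectaries (-4.93 ± 1.01, adjusted p = 0.000501). Cadinene synthases, which start the gossypol pathway of cotton glands, were higher in 3 of 22 cases (1 without floral sample 1) and lower in 0, a share of higher genes close to the 13.7% of all genes. Of 511 cytosolic ribosomal protein genes, 62 were higher and 4 lower (median 0.42), 19 to 66 were higher when a sample was left out, fewest without floral sample 1, 10 were higher when the 5 samples were fitted alone, and 149 were higher after division by column totals.

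The genes with the highest normalised values included some without a call. The uncharacterized gene LOC107924787 had 415500 and 601200 in floral nectaries and 1585000, 1532000 and 2922000 in circumbracteal nectaries, without overlap but with an adjusted p of 0.485 (-1.94 ± 1.84). Metallothionein LOC107944008, a small metal-binding protein, had 189900 and 132300 in floral nectaries and 117600, 106100 and 159800 in circumbracteal nectaries (0.33 ± 0.97, adjusted p = 0.857).

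The adjacent tissues and the post-secretory nectaries placed these differences. Between the adjacent tissues 2711 genes were called (5.88%), 1372 higher and 1339 lower on the floral side. Of the 1701 genes higher in the floral nectary in every fit, 261 (15.3%) were also higher in floral adjacent tissue, and of the 1179 lower genes 387 (32.8%) were also lower there. The difference of differences was called for 1734 genes (3.76%). Its call had the direction of the nectary difference for 635 (37.3%) of the 1701 and 329 (27.9%) of the 1179. It contains the nectary difference that selected these genes, so that agreement follows in part from the selection. After secretion 6555 genes differed between the nectaries (14.2%), 4501 higher and 2054 lower in the floral nectary. There 365 (21.5%) of the 1701 were again higher, while of the 1179 lower genes 165 (14.0%) were again lower and 199 were higher. The post-secretory circumbracteal nectaries were weeks older than the floral ones, the reverse of the pre-secretory pair, so nectary type and age cannot be told apart there either.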

How the data were processed

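RNA of dissected nectaries and adjacent tissues of upland cotton was sequenced as paired 125-base reads on an Illumina HiSeq. The study's methods describe BLASTN alignment to a *G. hirsutum* assembly, transfer of counts to Arabidopsis genes, upper-quartile normalisation and a test for a 50% change. The entries of the deposited table are instead RefSeq proteins of cotton, and its aligner, annotation and scaling are not given in the sources used here. The deposited values are a signal per entry in whole numbers. They are not raw counts: for 9022 entries the values fell on multiples of a step (median 1.67) in 96.42% of 216966 values not used to find it, against 57.55% by chance, so the depth in reads is unknown and no counting interval is given. A further sequencing set of the study was not analysed here.

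The 2 runs of each RNA sample were summed. Their log2 values correlated at 0.967 and 0.968 in floral and at 0.979 to 0.991 in circumbracteal samples. Of 49663 entries, 25722 were paired with a cotton gene by accession and 4725 by the gene name in the description, and the rest were kept as they were. Entries of one gene were summed to 46672 genes. The 46113 genes whose summed values reached 10 in 2 or more of 51 RNA samples were kept. After division by upper-quartile factors they were tested on log2(value + 1), a scale that understates changes of low genes. limma 3.58.1 in R 4.3.3 with a variance trend used 31 residual and 6.77 prior degrees of freedom, two-sided, with Benjamini-Hochberg adjustment over all genes tested. Tables and figures used Python 3.11.15, pandas 2.3.3, numpy 2.4.6 and matplotlib 3.10.9. The difference of differences is the log2 difference between nectaries minus that between their adjacent tissues. For genes chosen by their nectary difference its direction is therefore set in part by that choice. The code was tested on simulated data. Lists were built from best Arabidopsis matches or descriptions.

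The members and lists were chosen with earlier results of these data known. Named genes were the 12 largest rises and 12 largest falls among genes called in the fit of all samples and in each of the 5 fits leaving out 1 nectary sample, provided that the groups did not overlap and the larger group mean was 100 or more, then the 2 largest rises and 2 largest falls called in each list, and the 5 highest means in each group. A part of these is printed. The 2 SWEET9-like genes are fixed nectary markers. These genes were added after their values were seen: LOC107888681, LOC107896340, LOC107899251, LOC107903392, LOC107910209, LOC107937167, LOC107946596, LOC107946870, LOC107961921, XP_016673840.1, XP_016693025.1, XP_016721183.1, XP_016726801.1, XP_016738228.1, XP_016738296.1, XP_016739806.1, XP_016740519.1 and XP_016750206.1. Alternatives were other scalings, a pseudocount of 10, no filter, each run alone, a variance per group, fewer groups in the fit, sums per Arabidopsis match, a replicate block and leaving out each sample. The count over genes above 0 in all 5 samples was added after seeing the data.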

Additional observations from a re-analysis of the deposited data

Results flagged for a closer look

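The nectary difference itself differed from the adjacent difference for 1734 genes (limma, Benjamini-Hochberg). Among the genes named above, the difference of differences was positive, that is, more floral in the nectary than in its surroundings, at log2 12.07 for the allergen-like XP_016676640.1, 10.28 and 7.37 for the bZIP53-like LOC107889957 and LOC107892807, and 9.06 for the arogenate dehydratase LOC107889235. It was 7.30 and 6.62 for the CWINV4 matches LOC107899251 and XP_016738296.1 and 6.87 for their relative XP_016716712.1. The SWEET10-like genes XP_016739806.1 and LOC107946596 stood at 7.62 and 7.56, and the sucrose synthase XP_016673840.1 at 5.70. It was 7.03 for LOC107899584 and 6.94 for LOC107891351. For LOC107910209 it was 7.27, although that gene was not called between nectaries (log2 difference 0.68). Its adjacent tissue difference was -6.59, lower on the floral side.

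It was negative at -2.03 for LOC107901045, -3.26 for the photosystem gene LOC107903392, -4.99 for the chitinase-like LOC107912863 and -4.68 for the YABBY gene LOC107944698. Chalcone synthases XP_016699432.1 and XP_016699436.1 had -6.13 and -6.14, the reductase XP_016726801.1 -4.42, the aquaporin XP_016714450.1 -6.93, the vacuolar invertase XP_016721183.1 -4.41, the protease gene XP_016741951.1 -5.61 and ECERIFERUM 1-like XP_016753841.1 -5.04.

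Where a group was listed at 0 throughout, only the adjusted p is given. Higher in the nectary beyond its surroundings were LOC107896340 (adjusted p = 0.0228), LOC107942915 (3.64e-07), LOC107963763 (0.000268), XP_016672350.1 (4.02e-06), XP_016673587.1 (0.0425), XP_016686659.1 (0.000131), XP_016689608.1 (0.0011), XP_016696812.1 (9.1e-07), XP_016707926.1 (3.64e-07), XP_016716713.1 (0.0106), XP_016717628.1 (0.0101) and XP_016725848.1 (0.0254), all by limma. Lower were LOC107893829 (adjusted p = 0.0158), LOC107920865 (0.00025), LOC107923749 (0.0405), LOC107928636 (0.00129) and LOC107961921 (1.94e-05).

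Some genes lay on opposite sides, without overlap, before and after secretion, and that change was not tested. Lower before and higher after in the floral nectary were XP_016699432.1 and XP_016699436.1 (post-secretory log2 5.51 and 5.18), XP_016741951.1 (4.65), XP_016706395.1 (3.35), XP_016714450.1 (2.59), XP_016726801.1 (1.98), XP_016750206.1 (1.82), LOC107903392 (1.37) and XP_016694926.1 (adjusted p = 0.000424). LOC107907115 and LOC107957078 had post-secretory log2 differences of 2.45 and 1.00 that did not pass the test (adjusted p = 0.0602 and 0.0957, limma). Higher before and lower after were XP_016673840.1 (-2.44) and XP_016708994.1 (-2.69).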

How the results depend on the processing

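With 2 floral samples the count of called genes, 9883 of 46113, depended on the model. It was 3645 with a variance for each group, 3199 when only the groups compared were fitted, 4175 with the 4 pre-secretory groups, 3707 with entries summed by best Arabidopsis match, and 5603 among genes above 0 in all 5 samples, an alternative chosen after seeing the data. That filter removes genes at 0 in circumbracteal samples, so it lowers the number of higher calls by its construction. Leaving out 1 sample gave 4977 (without floral 2) to 11113 (without circumbracteal 2), with 5170 without floral 1, where the lone floral sample is assumed to vary like the other groups. Higher calls made up 63.7% of calls, 76.4% after column totals, 49.3% with the 4 groups and 48.5% among genes above 0 in all 5 samples. Between adjacent tissues (2711) the counts were 1067 by best match, 715 with only the groups compared, 1114 with the 4 groups and 1310 (without circumbracteal adjacent 3) to 4123 (without circumbracteal adjacent 2). For the difference of differences (1734) they were 506 with a variance per group, 849 by best match, 526 with only the groups compared, and 786 (without floral 1) to 2841 (without circumbracteal 2). After secretion (6555) they were 3584 with a variance per group, 2400 by best match, 2274 with only the groups compared and 4040 to 8533 with a sample left out. The fit of 4 pre-secretory groups holds no post-secretory samples. Of 1822 list members, 509 were called, 236 with a variance per group, 251 with only the groups compared, 324 with the 4 groups and 309 (without floral 1) to 516 (without circumbracteal 2). The cause of these changes was not tested.

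The replicate numbers did not pair the samples (correlations of -0.013 to 0.013). With the replicate number as a block, 9619 genes were called between nectaries, 2836 between adjacent tissues, 1719 for the difference of differences and 6713 after secretion. Of 84 genes printed, 80 were called. None of these 80 turned round in any alternative fitted per cotton gene, and 73 kept the call whichever nectary sample was left out. Sums per Arabidopsis match were not part of this check, nor was the sign of genes without a call. Calls lost were 22 with only the groups compared, 8 with a variance per group, 6 with the 4 groups, 2 after column totals, 2 with run 2 alone, 1 at a pseudocount of 10 and 0 with the block, run 1 alone, median-of-ratios factors or no filter.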
